A study of Homo sapiens with 16 samples.

Results

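Cells mend a DNA double-strand break by homologous recombination, which copies the sister chromatid, or by end joining, which ligates the ends. The expression of 37 genes of these routes and of the damage signalling around them was followed here. They were chosen by name, from the break sensors and resection nucleases through the BRCA proteins and the strand-exchange paralogs to the end-joining factors, the checkpoint kinases and the chromatin signalling proteins. Each of the 37 symbols matched 1 row among the 60658 genes of every table. The material was MDA-MB-231, an established human cell line from a triple-negative breast cancer, as BMAL1 -/- cells (KO; the gene symbol of BMAL1 is ARNTL) and as wild type cells (WT). KO cells under cisplatin, doxorubicin, tunicamycin and control and WT cells under the same 4 conditions made 8 groups of 2 biological replicates, 16 libraries in all, from passages 10-15. The sources used here give no dose, no time and no number of KO clones, and loss of BMAL1 cannot be told apart from other traits of the clones compared.

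Cisplatin crosslinks DNA, doxorubicin intercalates and traps topoisomerase II on broken DNA, and tunicamycin stops N-glycosylation, which burdens the endoplasmic reticulum. BMAL1, with CLOCK, drives transcription in the circadian clock from E-box sequences. The series names cisplatin and doxorubicin as drugs that start apoptosis and tunicamycin as a comparison agent foreseen to depend little on BMAL1. Many recombination genes are made mainly in S and G2 phase, when a sister chromatid is present, whereas the Ku proteins of end joining are abundant throughout the cell cycle. In a bulk sample fewer cells in a phase and less RNA per cell cannot be told apart.

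The authors deposited 1 table per condition in FPKM, a level per transcript length and library size, with 1 value for each group and their own test of KO against WT cells. No value per library is given, so no spread between replicates can be shown beside a level. A gene is called here where the authors tested it and their q-value, adjusted over all genes tested in that table, was at most 0.05. Their p-values go no lower than 5e-05, so the smallest q is shared by many genes. The 4 tables were normalized separately. A level set across tables, drug against control, is therefore a description with no test. Counts per library are not given. By a low percentile of the FPKM values above 0, all other groups were deeper than WT control, by up to 2.74 times (WT doxorubicin). That is a rough guide, which includes each table's scaling. ARNTL stood at 0.941 (cisplatin), 0.474 (doxorubicin), 2.24 (tunicamycin) and 0.889 (control) FPKM in KO cells, against 1.26, 1.31, 3.25 and 5.67 FPKM in WT cells in the same order. In the authors' deposited table it was called lower in KO cells in doxorubicin and control and not in cisplatin (q = 0.467) or tunicamycin (q = 0.0810); which part of the gene was edited is unknown here. VIM and KRT18, present in this line, were at 2883 to 6639.7 and 85.0 to 775 FPKM over the groups, PGR was listed at 0 in all of them, and ERBB2 was at 7.11 to 25.5 FPKM. The extraction protocol speaks of fibroblast lines, but DCN, LUM, PDGFRA and COL3A1 reached at most 0.0479 FPKM. COL1A1 was at 0.152 to 9.70 FPKM. Transcripts of the mitochondrial genome took 11.1% (KO) and 17.0% (WT) of summed FPKM under doxorubicin and at most 6.94% in the other groups.

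Promoters are shown for the members whose sequence carries either the E-box that BMAL1 and CLOCK bind or a site of the S-phase factor E2F, and for H2AFX, one of the 2 members lowest against control under doxorubicin on a log2 scale with a pseudocount of 1. RefSeq promoters (GRCh38.p14, 250 bases before to 50 after the gene start) were matched for 33 of the 37 members. Motifs were searched on both strands as exact letters. The E-box CACGTG was in the promoters of RAD50 and BRCA2, or 6.06% of those matched, against 7.43% of all 27305 promoters. The E2F forms TTTCGCGC or TTTGGCGC were in those of EXO1 and XRCC6 (6.06% against 1.18%), the cell-cycle homology region TTTGAA in 5 (15.2% against 15.4%) and the CCAAT box in 17 (51.5% against 35.7%). Capitals mark the E-box in the first pair, the E2F letters in the second pair, and CCAAT and TTTGAA on either strand in H2AFX.
RAD50 (chr5:132556727-132557026, plus strand): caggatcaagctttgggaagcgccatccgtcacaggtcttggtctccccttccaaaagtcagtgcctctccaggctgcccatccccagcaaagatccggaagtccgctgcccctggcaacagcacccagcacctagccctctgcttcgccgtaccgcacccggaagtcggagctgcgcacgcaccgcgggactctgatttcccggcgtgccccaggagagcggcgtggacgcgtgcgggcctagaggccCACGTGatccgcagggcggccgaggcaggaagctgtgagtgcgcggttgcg
BRCA2 (chr13:32315258-32315557, plus strand): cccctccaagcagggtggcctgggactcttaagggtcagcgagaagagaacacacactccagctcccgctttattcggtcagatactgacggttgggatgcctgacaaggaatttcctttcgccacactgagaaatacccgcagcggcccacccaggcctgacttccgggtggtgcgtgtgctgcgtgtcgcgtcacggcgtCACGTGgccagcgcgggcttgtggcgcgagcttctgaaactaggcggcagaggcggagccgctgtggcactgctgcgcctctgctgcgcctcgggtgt
EXO1 (chr1:241847954-241848253, plus strand): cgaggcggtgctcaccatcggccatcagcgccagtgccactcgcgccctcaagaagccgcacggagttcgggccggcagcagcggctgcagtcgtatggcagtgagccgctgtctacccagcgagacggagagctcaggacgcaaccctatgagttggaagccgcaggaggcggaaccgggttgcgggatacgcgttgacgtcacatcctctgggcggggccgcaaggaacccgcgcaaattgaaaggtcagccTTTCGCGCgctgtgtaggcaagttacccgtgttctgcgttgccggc
XRCC6 (chr22:41621045-41621344, plus strand): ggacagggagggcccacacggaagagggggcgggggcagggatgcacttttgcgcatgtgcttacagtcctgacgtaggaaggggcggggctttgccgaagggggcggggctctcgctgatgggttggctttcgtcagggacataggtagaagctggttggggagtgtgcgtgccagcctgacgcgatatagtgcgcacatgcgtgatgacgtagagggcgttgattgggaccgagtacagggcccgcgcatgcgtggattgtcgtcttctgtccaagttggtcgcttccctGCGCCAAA
H2AFX (chr11:119095416-119095715, minus strand): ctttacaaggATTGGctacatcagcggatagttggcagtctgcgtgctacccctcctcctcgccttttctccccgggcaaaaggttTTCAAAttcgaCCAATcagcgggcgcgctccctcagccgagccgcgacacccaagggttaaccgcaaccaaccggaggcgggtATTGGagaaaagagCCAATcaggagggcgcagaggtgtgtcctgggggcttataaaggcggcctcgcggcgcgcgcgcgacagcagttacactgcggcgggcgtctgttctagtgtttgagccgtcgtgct
Counted from the gene start at 0, the E-box begins at -1 in RAD50 and at -48 in BRCA2. Such matches describe letters in these windows and not bound sites.

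Under cisplatin nearly all called members were higher in KO cells, whereas in the other conditions calls went both ways. Under cisplatin 16 of 37 tested members were called higher in KO cells and 1 lower, where 25.4% and 24.2% of all tested genes were. The share called there was thus near that of all genes, and the split of 16 to 1 was not. Under doxorubicin the counts were 7 higher and 2 lower of 31 (all genes 24.4% and 20.7%). Under tunicamycin they were 10 and 4 of 37 (all genes 27.2% and 22.1%). In control cells 7 were higher and 7 lower of 37, beside 22.7% and 21.1% of all genes, so the shares without drug were near those of all genes. The members' median log2 KO over WT ratio was 0.20 in cisplatin, 0.014 in doxorubicin, 0.063 in tunicamycin and -0.031 in control, beside medians over all tested genes of 0.02, 0.042, 0.035 and 0.007. Most calls under cisplatin, tunicamycin and control were small in size, since 5 of 17, 2 of 14 and 6 of 14 reached 1.5-fold. Under doxorubicin 6 of 9 did. The share of all called genes that reached 1.5-fold was not taken. The 6 members not tested under doxorubicin were BLM, PALB2, BRCA2, XRCC2, RAD52 and POLQ, all below 0.5 FPKM in both groups there. Whether the ratio differed between conditions was not tested, because the tables hold 1 value per group. In all, 25 members were called in at least 1 table and 12 in none. The share of all genes called in at least 1 table was not taken, so these counts have no background beside them. LIG4, XRCC3 and XRCC5 were called higher in all 4 tables and no member lower in all 4. That is 3 of the 31 members tested in every table, beside 17.7% of the 10881 genes tested in every table that were called in 1 direction in all 4.

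**Figure D1:**
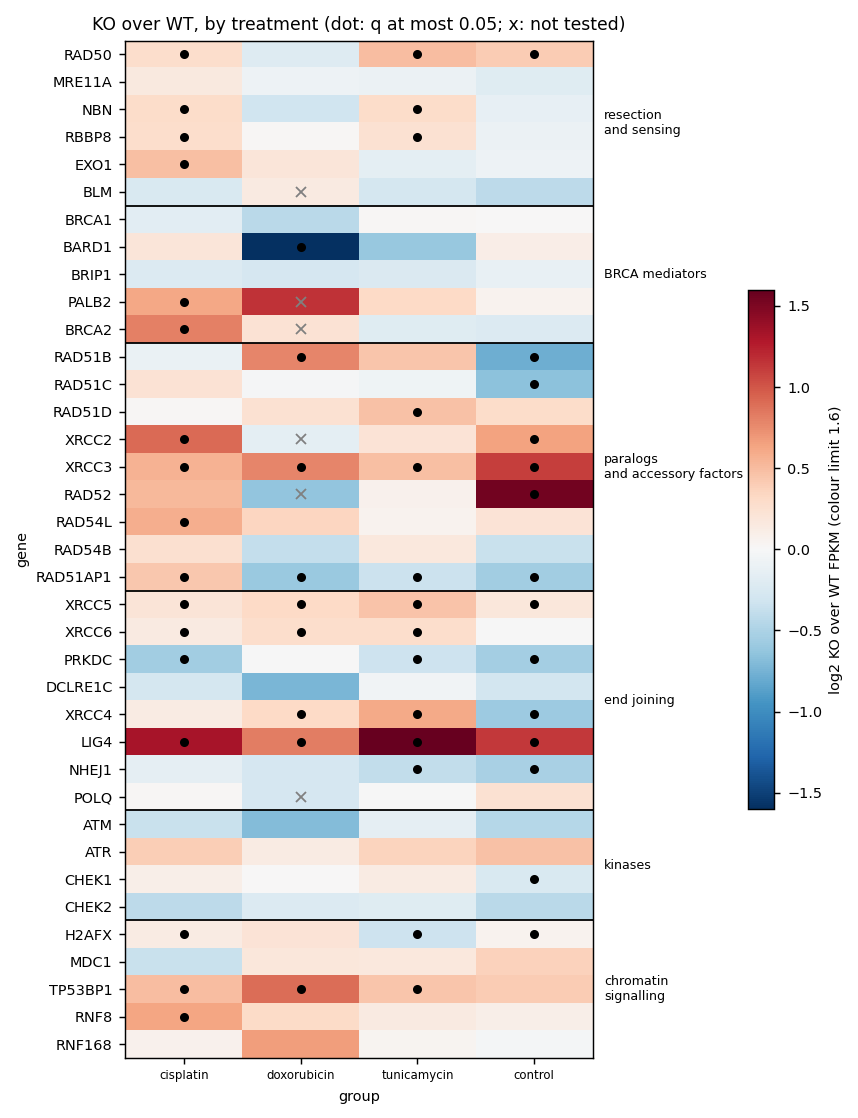
Rows are the 37 members by class, columns the 4 conditions, and colour is the authors' log2 KO over WT ratio, red where KO cells were higher; colours saturate at 1.6, which BARD1 under doxorubicin exceeded (-2.38). Dots mark calls (q at most 0.05) and crosses the genes that were not tested. The cisplatin column holds 16 higher calls and 1 lower call, PRKDC.

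Of the sensors and resection factors, which grip the broken ends and trim them to single strands, RAD50 was the member called most often. RAD50, the ATPase of the MRN complex, stood at 13.3 (cisplatin), 4.28 (doxorubicin), 19.4 (tunicamycin) and 17.5 (control) FPKM in KO cells, against 10.9, 4.92, 13.8 and 13.2 FPKM in WT cells in the same order. It was called higher in KO cells except under doxorubicin, with log2 ratios in the authors' deposited tables of 0.29, -0.20, 0.49 and 0.41 in the same order and q of 0.0210, 0.498, 0.000173 and 0.0124. Its annotated exons share 79.7% of their bases with AC116366.3 on the same strand, whose level was not used here, and 2.49% with TH2LCRR on the other strand, which was listed at 0 in all 8 groups. NBN, the MRN subunit that recruits ATM, was called higher in KO cells under cisplatin (27.6 FPKM in KO and 22.6 FPKM in WT cells) and tunicamycin (26.2 FPKM in KO and 21.3 FPKM in WT cells). RBBP8 (CtIP), which starts resection, was called higher in the same conditions, at 34.9 and 24.4 FPKM in KO cells and 28.8 and 20.6 FPKM in WT cells. EXO1, the exonuclease of long-range resection, was called under cisplatin alone, with 78.2 FPKM in KO and 56.2 FPKM in WT cells (log2 of 0.48, q = 0.000167 in the authors' deposited table). The MRN nuclease MRE11A, at 7.06 to 12.2 FPKM over the 8 groups, and BLM, the helicase that works with long-range resection and unwinds recombination intermediates, were called in no table.

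Among the BRCA proteins, which mediate recombination on the resected strand, calls came under cisplatin and doxorubicin. BRCA2, a mediator of recombination, stood at 6.51 (cisplatin), 0.339 (doxorubicin), 3.34 (tunicamycin) and 5.18 (control) FPKM in KO cells, against 3.74, 0.288, 3.83 and 6.05 FPKM in WT cells in the same order. The cisplatin difference was called (log2 of 0.80, q = 0.000167 in the authors' deposited table), while KO cells had the lower level under tunicamycin and control, where it was not called. The other tested genes in its 10 Mb window had a median log2 ratio of 1.05 under cisplatin. PALB2, the bridge from BRCA1 to BRCA2, was called higher under cisplatin, with 10.4 FPKM in KO and 6.76 FPKM in WT cells. BARD1, the partner of BRCA1 in its ubiquitin ligase, had 0.258 FPKM in KO and 1.34 FPKM in WT cells under doxorubicin, the largest called log2 ratio of any member (log2 of -2.38, q = 0.00292 in the authors' deposited table). With a pseudocount of 1 on both levels it was -0.90, smaller in size than the ratio of LIG4 under tunicamycin (1.36). In the other conditions BARD1 was at 6.97, 2.89 and 5.74 FPKM in KO cells and 6.08, 4.4 and 5.34 FPKM in WT cells (cisplatin, tunicamycin and control), with no call. BRCA1, the most abundant of this class, stood at 14.6 (cisplatin), 2.82 (doxorubicin), 15.4 (tunicamycin) and 13.1 (control) FPKM in KO cells, against 16.5, 3.80, 15.2 and 13.1 FPKM in WT cells in the same order, and BRIP1, the helicase bound by BRCA1, ranged from 0.791 to 7.49 FPKM. Neither was called in any table.

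The paralogs and accessory factors of strand exchange held a recurrent difference, XRCC3, and opposed ones. XRCC3, of the RAD51C-XRCC3 complex, stood at 47.8 (cisplatin), 7.59 (doxorubicin), 19.5 (tunicamycin) and 34.2 (control) FPKM in KO cells, against 32.4, 4.41, 14.0 and 15.9 FPKM in WT cells in the same order. It was called higher in KO cells in all 4 conditions, with log2 ratios in the authors' deposited tables of 0.56, 0.78, 0.48 and 1.11. However, 76.7% of its annotated exonic bases lie under exons of KLC1 on the other strand, and the sources used here do not say whether counting used strand. KLC1 had log2 ratios in the authors' deposited tables of -0.11, 0.34, 0.39 and 0.28 in the same order. KLC1 itself stood at 54.9, 34.9, 69.3 and 66.8 FPKM in KO cells and 59.2, 27.5, 53.0 and 54.9 FPKM in WT cells. How far the shared bases moved XRCC3 was not tested. XRCC2 was called higher under cisplatin (7.26 FPKM in KO and 3.88 FPKM in WT cells) and in control (4.70 FPKM in KO and 3.0 FPKM in WT cells). RAD52, a strand-annealing protein, was called in control, with 3.39 FPKM in KO and 1.16 FPKM in WT cells (log2 of 1.54, q = 0.00862 in the authors' deposited table). Under the drugs RAD52 stood at 5.59, 0.292 and 3.93 FPKM in KO cells and 3.88, 0.453 and 3.77 FPKM in WT cells (cisplatin, doxorubicin and tunicamycin), with no call. RAD54L, a DNA translocase of recombination, was called under cisplatin, with 19.0 FPKM in KO and 12.7 FPKM in WT cells. Its exons share 25.1% of bases with LRRC41 on the other strand. LRRC41 had a log2 ratio of 0.49 under cisplatin in the authors' deposited table, beside 0.58 for RAD54L. How far these shared bases moved RAD54L was not tested. RAD51D was called higher under tunicamycin (9.09 FPKM in KO and 6.55 FPKM in WT cells), and RAD54B was called nowhere, at 0.655 to 9.07 FPKM. RAD51C, the partner of XRCC3, stood at 31.1 (cisplatin), 8.81 (doxorubicin), 20.7 (tunicamycin) and 23.0 (control) FPKM in KO cells, against 26.4, 8.96, 21.7 and 36.2 FPKM in WT cells in the same order. It was called lower in KO cells in control, where WT cells had the highest level of the 8 groups.

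RAD51AP1, which stimulates strand invasion, was called in every table but not in 1 direction. It stood at 22.3 (cisplatin), 10.5 (doxorubicin), 11.3 (tunicamycin) and 12.8 (control) FPKM in KO cells, against 16.5, 15.9, 14.4 and 18.7 FPKM in WT cells in the same order, so KO cells were higher under cisplatin and lower in the other 3 conditions. The log2 ratios in the authors' deposited tables were 0.43, -0.59, -0.34 and -0.56, with q of 0.00278, 0.00147, 0.0111 and 0.00491. RAD51B, another paralog, stood at 0.759 (cisplatin), 5.38 (doxorubicin), 7.12 (tunicamycin) and 5.13 (control) FPKM in KO cells, against 0.818, 3.13, 5.22 and 8.82 FPKM in WT cells in the same order. It was called higher in KO cells under doxorubicin (log2 of 0.78, q = 0.0393 in the authors' deposited table) and lower in control (-0.78, q = 0.0267). With XRCC4 and H2AFX, 4 of the 31 members tested in every table were called in both directions. The share was 12.9% over all genes tested in every table, so this is no larger share than the background.

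Of the end-joining factors, LIG4 had the largest recurrent difference of any member. LIG4, the ligase that seals the ends, stood at 12.3 (cisplatin), 0.672 (doxorubicin), 10.5 (tunicamycin) and 11.2 (control) FPKM in KO cells, against 4.96, 0.380, 3.48 and 5.10 FPKM in WT cells in the same order. KO cells were higher in every condition, with log2 ratios in the authors' deposited tables of 1.32, 0.82, 1.59 and 1.13 and q of 0.000167, 0.0127, 0.000173 and 0.000213. The other tested genes in its 10 Mb window had median log2 ratios of 1.06 to 1.36. XRCC5 (Ku80) and XRCC6 (Ku70) form the ring that first binds broken ends and were the most abundant members besides H2AFX. XRCC5 stood at 186 (cisplatin), 239 (doxorubicin), 193 (tunicamycin) and 231 (control) FPKM in KO cells, against 161, 192, 141 and 203 FPKM in WT cells in the same order, with log2 ratios in the authors' deposited tables of 0.21, 0.32, 0.45 and 0.18, all called. XRCC6 stood at 325 (cisplatin), 570.2 (doxorubicin), 326 (tunicamycin) and 348 (control) FPKM in KO cells, against 296, 467, 267 and 348 FPKM in WT cells in the same order. It was called higher under each drug and was nearly equal in control (log2 of -0.00034, q = 0.991 in the authors' deposited table). The kinase that Ku recruits went the other way. PRKDC (DNA-PKcs) stood at 30.6 (cisplatin), 62.0 (doxorubicin), 35.3 (tunicamycin) and 49 (control) FPKM in KO cells, against 44.8, 62.0, 44.3 and 71.7 FPKM in WT cells in the same order, and was called lower in KO cells in cisplatin, tunicamycin and control, with log2 ratios in the authors' deposited tables of -0.55, -0.33 and -0.55. Under doxorubicin the PRKDC ratio in the authors' deposited table was -0.0019 (q = 0.981).

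XRCC4, the scaffold of LIG4, did not follow LIG4. It stood at 3.82 (cisplatin), 9.01 (doxorubicin), 18 (tunicamycin) and 16.7 (control) FPKM in KO cells, against 3.49, 7.22, 11.8 and 25.0 FPKM in WT cells in the same order, called higher in KO cells under doxorubicin and tunicamycin and lower in control (log2 of 0.32, 0.61 and -0.58 in the authors' deposited tables). NHEJ1 (XLF), which works with XRCC4 and LIG4, was called lower in KO cells under tunicamycin (6.23 FPKM in KO and 8.21 FPKM in WT cells) and in control (7.59 FPKM in KO and 10.9 FPKM in WT cells). 65.4% of its exonic bases are shared with AC068946.1, which was listed at 0 in all groups. DCLRE1C (Artemis), the end-processing nuclease, ranged from 0.568 to 10.1 FPKM and was not called. POLQ, the polymerase of microhomology-mediated joining, stood at 1.02 (cisplatin), 0.0970 (doxorubicin), 0.637 (tunicamycin) and 0.985 (control) FPKM in KO cells, against 1.0, 0.117, 0.641 and 0.834 FPKM in WT cells in the same order, the lowest mean over the 8 groups of the 37 members, and was not called either.

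**Figure D2:**
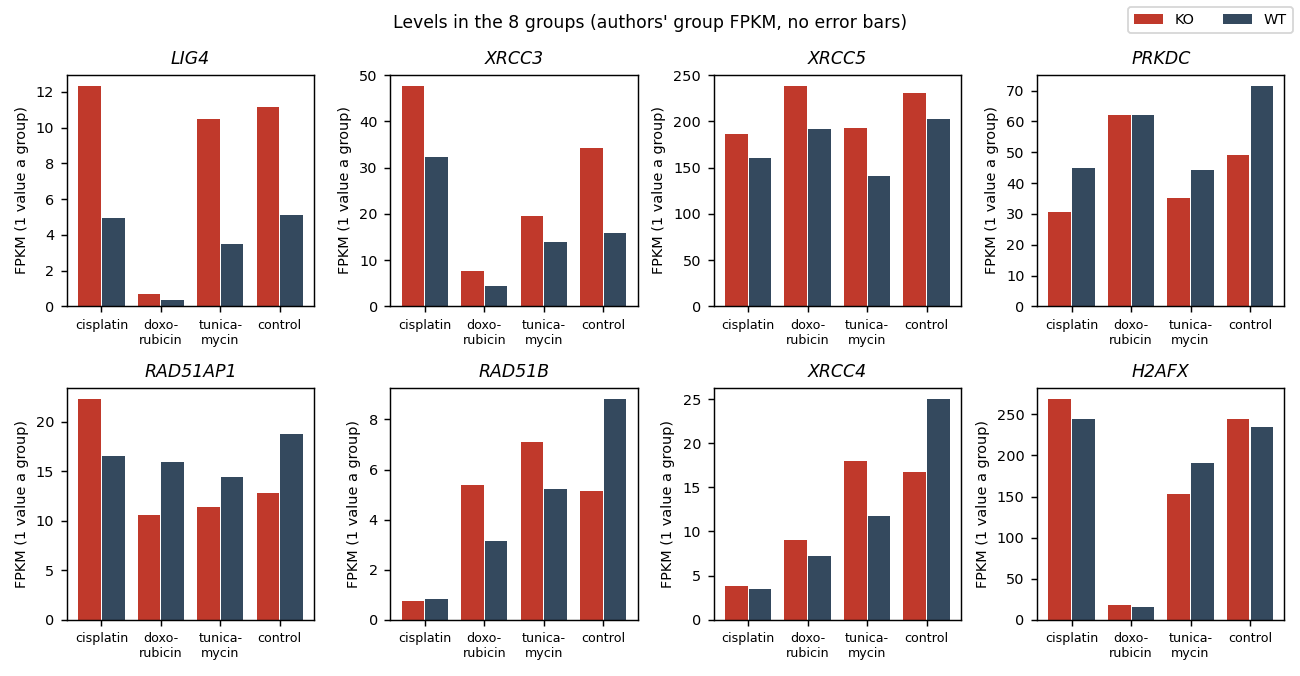
Bars are the authors' group FPKM of 8 members, KO (red) left of WT (dark) in each condition; the axis starts at 0, and no error bars can be drawn because each group has 1 value. LIG4, XRCC3 and XRCC5 are higher in KO cells in all 4 conditions, while RAD51AP1, RAD51B, XRCC4 and H2AFX change order between conditions.

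The kinases that carry the signal were the class with the fewest calls. ATM, which answers to double-strand breaks, ranged from 3.15 to 5.68 FPKM, and CHEK2, its effector, from 2.08 to 6.64 FPKM. ATR, which answers to single-stranded DNA, stood at 4.05 (cisplatin), 1.11 (doxorubicin), 4.02 (tunicamycin) and 5.32 (control) FPKM in KO cells, against 3.09, 1.01, 3.14 and 3.85 FPKM in WT cells in the same order. None of the 3 was called in a table, although ATM and CHEK2 had the lower level and ATR the higher level in KO cells in all 4. CHEK1, the effector of ATR and the most abundant of the 4, stood at 64.3 (cisplatin), 25.0 (doxorubicin), 48.6 (tunicamycin) and 53.4 (control) FPKM in KO cells, against 60.3, 24.9, 44.2 and 63.3 FPKM in WT cells in the same order, and was called lower in KO cells in control (log2 of -0.25, q = 0.00887 in the authors' deposited table).

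Among the chromatin signalling proteins, TP53BP1, which shields ends from resection, was called most often in 1 direction. It stood at 11.4 (cisplatin), 2.42 (doxorubicin), 10.7 (tunicamycin) and 10.3 (control) FPKM in KO cells, against 8.10, 1.30, 7.91 and 7.73 FPKM in WT cells in the same order, and was called higher in KO cells under each drug (log2 of 0.49, 0.89 and 0.44 in the authors' deposited tables), with q = 0.0656 in control. TUBGCP4 on the other strand covers 28.7% of its exonic bases, and its own log2 ratios in the authors' deposited tables were 0.54, 0.29, 0.34 and 0.83. How far these shared bases moved TP53BP1 was not tested. H2AFX encodes H2AX, the histone variant that ATM phosphorylates beside a break. H2AFX stood at 269 (cisplatin), 18.4 (doxorubicin), 152 (tunicamycin) and 245 (control) FPKM in KO cells, against 245, 15.7, 191 and 234 FPKM in WT cells in the same order, called higher in KO cells under cisplatin and in control and lower under tunicamycin (log2 of 0.14, 0.062 and -0.33 in the authors' deposited tables). The control difference was called in the authors' deposited table at a KO over WT ratio of 1.04 (q = 0.0390). RNF8, the ubiquitin ligase that reads the mark MDC1 carries, was called higher under cisplatin, with 46.6 FPKM in KO and 30.1 FPKM in WT cells (log2 of 0.63, q = 0.000167 in the authors' deposited table). MDC1, the adaptor on phosphorylated H2AX, ranged from 3.32 to 18.4 FPKM, and RNF168, the ligase downstream of RNF8, from 0.389 to 13.7 FPKM. Neither was called.

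LIG4 and BRCA2 lie in chromosome segments whose genes were mostly higher in KO cells. Each member was set beside the median ratio of the other tested genes in its 10 Mb window. LIG4 (chromosome 13, 108207439 to 108218368, GRCh38, GENCODE 29) had window medians of 1.36, 1.26, 1.08 and 1.06, beside its own 1.32, 0.82, 1.59 and 1.13 in the authors' deposited tables, so its KO over WT ratio was close to that of its neighbours in cisplatin and control. BRCA2 (chromosome 13, 32315474 to 32400266) lies in another such window of chromosome 13, with medians of 1.05, 1.04 and 0.70 in cisplatin, tunicamycin and control. Its own ratios in the authors' deposited tables, 0.80, -0.20 and -0.22, lay below them in each. These were the 2 members in windows with a median of at least 0.3 in size and 1 sign in all 4 tables. XRCC4 (chromosome 5, 83077498 to 83353787) had window medians of 0.30, 0.28, 0.27 and -0.37, so its neighbours, like XRCC4, had the lower level in KO cells in control and the higher level under the drugs. The neighbours of XRCC5 had medians of 0.20, 0.29, 0.27 and 0.33, beside its own 0.21, 0.32, 0.45 and 0.18 in the authors' deposited tables. The neighbours of PRKDC had medians of -0.30, -0.26, -0.24 and -0.29, and those of XRCC3 stayed between -0.14 and 0.12. The part of the neighbourhood in the members' ratios was not tested.

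**Figure D3:**
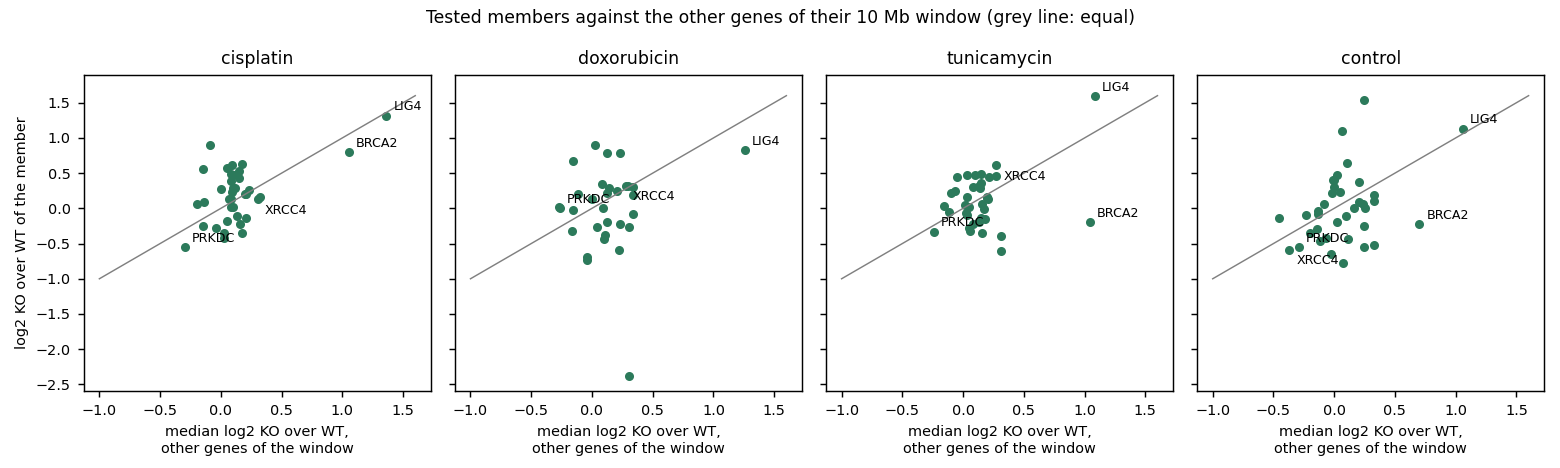
Each point is a tested member, with the median log2 KO over WT ratio of the other tested genes in its 10 Mb window on the horizontal axis and its own ratio on the vertical axis, 1 panel per condition. LIG4 lies far to the right near the line of equality in cisplatin and control, and BRCA2 lies below that line in the 3 panels that show it (it was not tested under doxorubicin).

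Against control cells the members' levels differed by agent. These are log2 ratios of drug over control FPKM within a genotype with a pseudocount of 1 on both, which understates low genes, set across tables with no test. Members and genes entered a count where they had at least 1 FPKM in 1 of the 2 groups, and were counted past 1.5-fold. Under doxorubicin 29 of 36 members were past 1.5-fold lower in KO cells and 30 of 36 in WT cells, beside 54.1% and 54.4% of all genes. Past 1.5-fold higher were 1 in KO and 0 in WT cells (all genes 13.2% and 11.0%). The median over all genes was itself -0.74 in KO and -0.72 in WT cells, and that of the members -1.69 and -1.52. Relative to that shift, 22 members in KO and 24 in WT cells were past 1.5-fold lower, beside 32.8% and 32.1% of all genes. The larger share of mitochondrial transcripts given above belongs to the same groups, and its part in these values was not tested.

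The lowest ratios under doxorubicin came from several classes. EXO1 stood at 78.2 (cisplatin), 1.51 (doxorubicin), 16.0 (tunicamycin) and 30.7 (control) FPKM in KO cells, against 56.2, 1.31, 17.7 and 32.3 FPKM in WT cells in the same order, or log2 -3.66 and -3.85 against control in KO and WT cells. H2AFX had 18.4 (KO) and 15.7 (WT) FPKM under doxorubicin, a log2 ratio to control of -3.66 (KO) and -3.81 (WT). RNF168 stood at 13.7 (cisplatin), 0.620 (doxorubicin), 10.9 (tunicamycin) and 10.1 (control) FPKM in KO cells, against 13.1, 0.389, 10.6 and 10.4 FPKM in WT cells in the same order, and BLM at 6.96 (cisplatin), 0.231 (doxorubicin), 3.22 (tunicamycin) and 7.31 (control) FPKM in KO cells, against 8.25, 0.209, 3.90 and 9.77 FPKM in WT cells in the same order. Both were below 1 FPKM under doxorubicin in both genotypes. LIG4, PALB2, BRCA2 and DCLRE1C were among the others below 1 FPKM there in both. The members near or above control under doxorubicin included the abundant end-joining genes. XRCC6 was higher than in control, at log2 0.71 in KO and 0.43 in WT cells. XRCC5 was at 0.05 (KO) and -0.084 (WT), PRKDC at 0.33 (KO) and -0.20 (WT), and ATM at -0.16 (KO) and 0.022 (WT). This order depends on the pseudocount: without one, PALB2 was 38.1-fold (KO) and 81.5-fold (WT) below control and BLM 31.6-fold and 46.8-fold, further than EXO1 (20.4-fold and 24.6-fold) or H2AFX (13.3-fold and 14.9-fold).

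**Figure D4:**
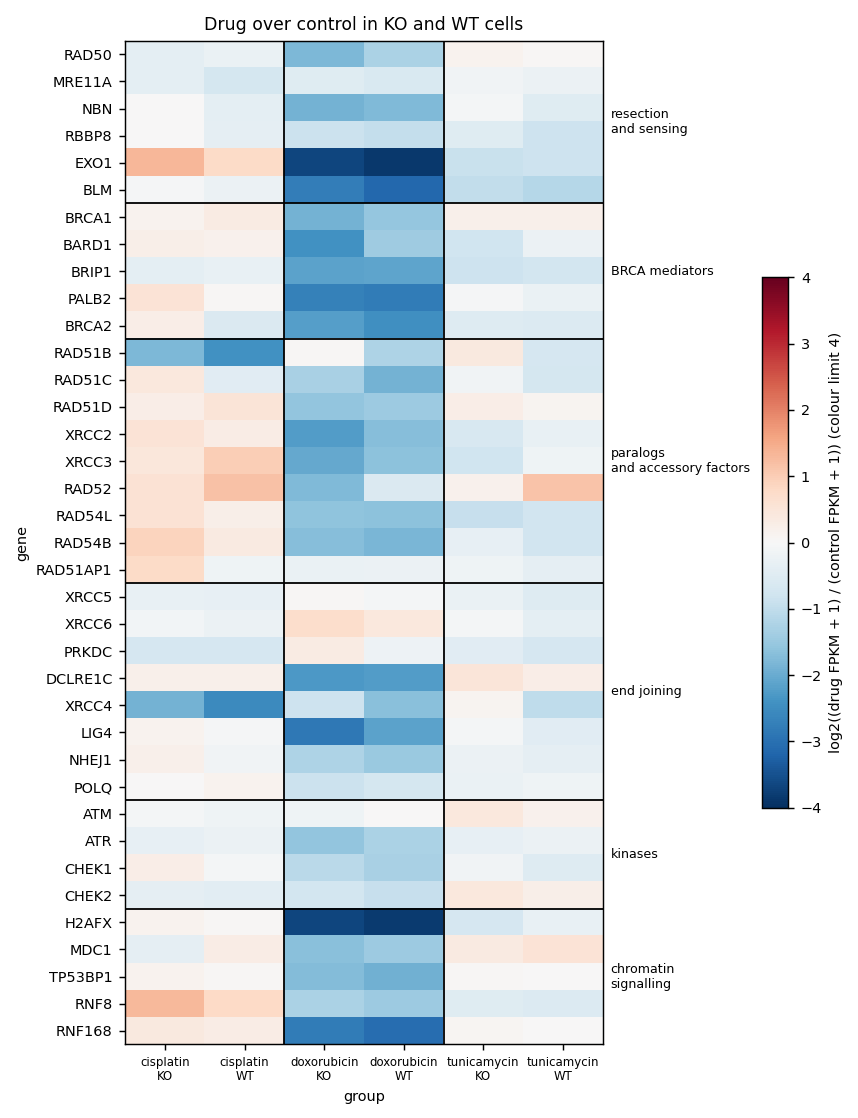
Rows are the 37 members by class, columns are each drug in KO and WT cells, and colour is the log2 ratio of drug over control with a pseudocount of 1, blue where the level was below control. The doxorubicin columns are blue for all members but a few, EXO1 and H2AFX being the deepest, and XRCC4 and RAD51B are the deepest under cisplatin.

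Under cisplatin most members were near their control level and a few far from it. Past 1.5-fold higher than control were 6 of 37 members in KO and 4 of 37 in WT cells (all genes 18.9% and 19.9%), and past 1.5-fold lower 3 and 4 (all genes 14.7% and 12.4%). These shares were near or below those of all genes. The median over all genes was 0.13 in KO and 0.11 in WT cells, against 0.14 and -0.069 for the members. EXO1 was at log2 1.32 in KO and 0.78 in WT cells. RNF8 stood at 46.6 (cisplatin), 6.94 (doxorubicin), 12.7 (tunicamycin) and 18.2 (control) FPKM in KO cells, against 30.1, 5.61, 11.5 and 17.1 FPKM in WT cells in the same order, or log2 1.31 (KO) and 0.79 (WT) against control. RAD52 and XRCC3 had smaller values in KO cells (0.59 and 0.47) than in WT cells (1.18 and 0.98). RAD51AP1 was at 0.76 in KO and -0.17 in WT cells, and BRCA2 at 0.28 (KO) and -0.57 (WT).

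The members lowest under cisplatin were the 2 with the longest span on the genome. RAD51B spans 910.4 kb (chromosome 14, 67819779 to 68730218) and was at log2 -1.80 in KO and -2.43 in WT cells, the WT level being 10.8-fold below control without a pseudocount. XRCC4 spans 276 kb and was at -1.88 (KO) and -2.53 (WT). RBBP8, the third member over 200 kb, was at 0.011 (KO) and -0.35 (WT). Over all genes the median under cisplatin went down with gene span, at 0.32 (KO) and 0.35 (WT) for genes up to 10 kb and -1.12 and -0.77 for those over 200 kb, of which 76.1% (KO) and 62.5% (WT) were past 1.5-fold lower. Under tunicamycin the same classes had medians of -0.09 and -0.074 up to 10 kb and -0.018 and -0.017 over 200 kb. Across the 37 members, which share libraries and are not replicates, Spearman's rho of the cisplatin ratio with span was -0.55 in KO and -0.50 in WT cells (Pearson's r on log10 span -0.52 and -0.54), and without the 3 over 200 kb rho was -0.46 (KO) and -0.38 (WT) and r -0.29 and -0.28. Under doxorubicin rho was 0.39 and 0.29, so the shorter members tended to the lower values there, among them H2AFX, the shortest at 1.61 kb. Over all genes the direction was the opposite, with medians of -0.17 (KO) and -0.38 (WT) up to 10 kb and -1.02 and -0.91 over 200 kb.

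**Figure D5:**
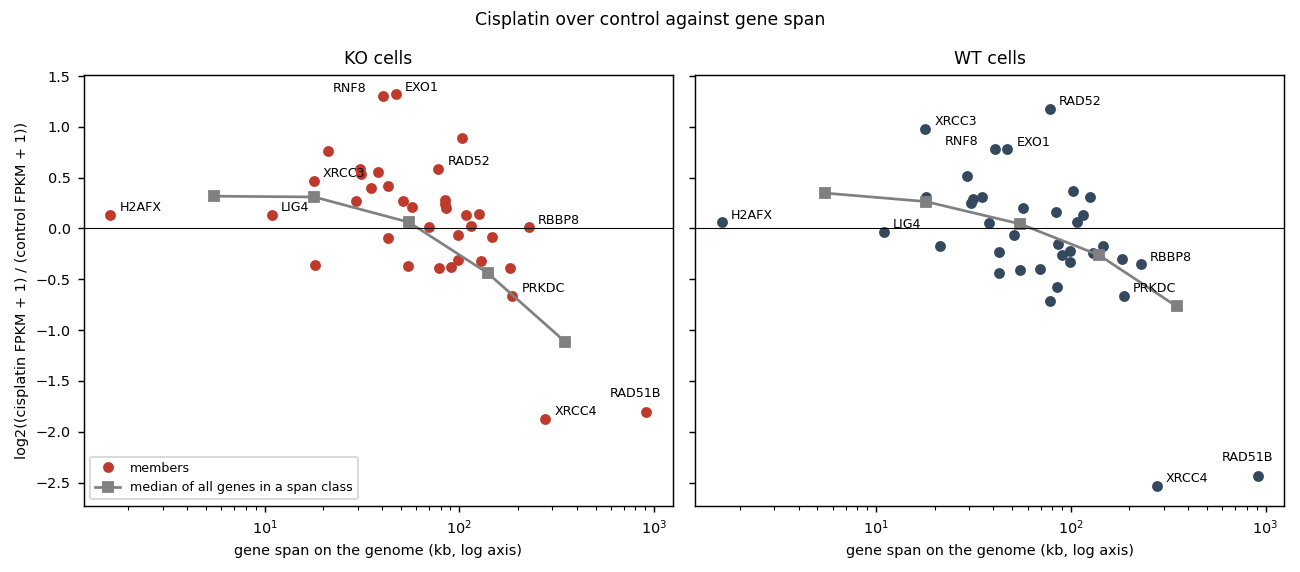
Points are the 37 members, with genome span in kb on a log axis and the log2 ratio of cisplatin over control on the vertical axis, KO cells left and WT cells right; grey squares are medians over all genes in 5 span classes. XRCC4 and RAD51B lie lowest in both panels, below all grey squares.

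Under tunicamycin the members were slightly below control. Past 1.5-fold lower were 8 of 36 in KO and 10 of 36 in WT cells (all genes 8.88% and 11.8%), and past 1.5-fold higher 0 and 1 (all genes 8.63% and 10.6%). Lowest in both genotypes was BLM, at log2 -0.98 in KO and -1.14 in WT cells. RAD54L stood at 19.0 (cisplatin), 3.40 (doxorubicin), 6.0 (tunicamycin) and 12.3 (control) FPKM in KO cells, against 12.7, 2.68, 5.78 and 10.6 FPKM in WT cells in the same order, and BRIP1 at 5.06 (cisplatin), 0.791 (doxorubicin), 3.48 (tunicamycin) and 6.92 (control) FPKM in KO cells, against 5.92, 0.955, 4.07 and 7.49 FPKM in WT cells in the same order, so both were below control under tunicamycin in each genotype. XRCC4 was at 0.10 in KO and -1.02 in WT cells, and RAD52 at 0.17 (KO) and 1.14 (WT). The difference of KO minus WT cells in the log2 drug ratio had a median over members of 0.14 for cisplatin, 0.11 for doxorubicin and 0.14 for tunicamycin, beside -0.016, 0.0034 and 0.0079 over all genes. All 3 use the same 2 control groups. RAD51B and XRCC4 had positive differences for every drug (0.63, 1.31 and 1.06 for RAD51B), and RAD52 negative ones (-0.59, -1.19 and -0.97).

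Cell-cycle markers differed between the same samples. For the counts of listed genes that follow, the shares of all tested genes called higher and lower in KO cells were 25.4% and 24.2% in cisplatin, 24.4% and 20.7% in doxorubicin, 27.2% and 22.1% in tunicamycin, and 22.7% and 21.1% in control. Of 19 markers of S and G2/M phase, calls higher and lower in KO cells numbered 7 and 10 of 19 tested under cisplatin, 3 and 9 of 18 tested under doxorubicin, 3 and 14 of 19 tested under tunicamycin, with 6 and 10 of 19 tested in control. PCNA, the replication clamp, stood at 182 (cisplatin), 59.4 (doxorubicin), 70.5 (tunicamycin) and 140.2 (control) FPKM in KO cells, against 195, 121, 101 and 221 FPKM in WT cells in the same order. CCNE1, the cyclin of S-phase entry, stood at 42.8 (cisplatin), 0.586 (doxorubicin), 6.12 (tunicamycin) and 14.5 (control) FPKM in KO cells, against 20.8, 0.269, 4.60 and 9.71 FPKM in WT cells in the same order. MCM2, MCM5 and MCM6, of the replicative helicase, and CCNE1 were called higher in at least 3 tables. TOP2A, CCNB1, AURKA, CENPF and BUB1 of G2 and mitosis, PCNA, MCM4, MCM7 and E2F1 were called lower in at least 3. Calls in both directions were held by CCNA2, MKI67, CDK1 and MCM3. CCNA2 and CDK1 were called higher in KO cells under cisplatin (log2 of 0.22 and 0.24 in the authors' deposited table), and MKI67 and MCM3 in control. Lower calls were CCNA2 in the other 3 conditions, CDK1 in tunicamycin and control, MKI67 in tunicamycin, and MCM3 in doxorubicin and tunicamycin. Against control, 4 of these markers were past 1.5-fold higher and 2 lower under cisplatin in KO cells, and 3 and 6 in WT cells. Among all genes those cisplatin shares were 18.9% and 14.7% in KO and 19.9% and 12.4% in WT cells. Past 1.5-fold lower were 12 markers in KO and 11 in WT cells under doxorubicin, and 9 and 8 under tunicamycin. The doxorubicin counts were near the 54.1% and 54.4% of all genes, and the tunicamycin counts above the 8.88% and 11.8%. Their summed FPKM was 1707 in cisplatin, 999 in doxorubicin, 1250.1 in tunicamycin and 1799 in control in KO cells, against 1801, 1078, 1509 and 2206 in WT cells. The part of the cell cycle in the members' values was not tested.

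Other genes of the same routes were counted from listed genes of known role. Window medians were taken for the members only, so the part of the neighbourhood in the ratios of these other genes was not tested. Among 22 further recombination genes, calls higher and lower in KO cells numbered 8 and 4 of 21 tested under cisplatin, 2 and 5 of 19 tested under doxorubicin, 1 and 7 of 21 tested under tunicamycin, with 4 and 8 of 21 tested in control. RPA3, a subunit of the single-strand binding protein RPA, was called lower in all 4 tables, at 20.5 (cisplatin), 26.2 (doxorubicin), 13.9 (tunicamycin) and 19.1 (control) FPKM in KO cells, against 52.7, 63.0, 44.4 and 74.9 FPKM in WT cells in the same order. FIGNL1, an ATPase of recombination, and the helicase WRN were also lower in all 4, at 7.80 and 1.39 FPKM in KO and 15.4 and 2.08 FPKM in WT cells without drug. SWI5 and RMI1 were called lower in 3 tables, and RPA1, PSMC3IP and MUS81 higher in 3. SFR1 and RMI2 were called once in each direction. Among 16 further end-joining and end-protection genes the counts were 4 and 1 of 16 tested under cisplatin, 4 and 1 of 14 tested under doxorubicin, 3 and 4 of 16 tested under tunicamycin, with 4 and 4 of 16 tested in control. C9orf142 (PAXX), a relative of XRCC4, was lower in all 4, at 46.3 in KO and 65.2 FPKM in WT control cells. RIF1, a partner of TP53BP1, and PARP1, a sensor of breaks, were called higher in 3, while MAD2L2 and LIG1 had calls in both directions.

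Among 17 further checkpoint genes the counts were 10 and 3 of 17 tested under cisplatin, 1 and 2 of 14 tested under doxorubicin, 4 and 7 of 17 tested under tunicamycin, with 1 and 3 of 17 tested in control. The cisplatin count was the largest, and its members called higher include the clamp genes RAD9A and RAD1 and the ATR activator TOPBP1, at 12, 54.5 and 15.3 FPKM in KO and 8.38, 37.7 and 11.9 FPKM in WT cells. These 3 were chosen after their values were seen. Not called under cisplatin were HUS1 of the same clamp, ETAA1, ATRIP and PPM1D. Their log2 ratios in the authors' deposited table were 0.19, 0.20, -0.14 and 0.25, with q of 0.328, 0.364, 0.0561 and 0.0502. CDKN1A (p21), an inhibitor of cyclin-dependent kinases, was called lower in KO cells in all 4 tables, at 62.4 (cisplatin), 15.4 (doxorubicin), 21.6 (tunicamycin) and 14.1 (control) FPKM in KO cells, against 76.9, 24, 28.8 and 22.9 FPKM in WT cells in the same order. CDC25C was lower in 3, and RAD17, WEE1 and CDC25B had calls in both directions. Among 10 further genes of ubiquitin signalling at breaks the counts were 1 and 1 of 10 tested under cisplatin, 2 and 1 of 8 tested under doxorubicin, 3 and 1 of 10 tested under tunicamycin, with 2 and 2 of 9 tested in control. UBE2N (Ubc13), the conjugating enzyme that works with RNF8, was lower in all 4, at 117 in KO and 179 FPKM in WT control cells. BABAM1 was higher in 3, and BRE was called once in each direction.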

How the data were processed

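RNA-seq was done on 16 libraries of MDA-MB-231 cells in 8 groups of 2, grouped by the genotype and treatment in the sample titles. Per the submitters' processing notes, STAR 2.5.3, Trimmomatic 0.35, Cuffdiff, Cufflinks and FastQC 0.11.5 were used with build hg38; the sources used here give neither their order nor the annotation or strand setting. Per the labels' protocols, libraries came from an mRNA kit and were sequenced paired-end.

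The authors deposited 4 tables of 60658 Ensembl genes, with 1 FPKM value per group, both replicates combined. Their deposited log2 column is KO over WT FPKM with no pseudocount (recomputed to within 4.64e-05). A score column that the authors deposited holds Cuffdiff's test statistic and was not used further. The p-values and q-values are the authors', with q adjusted by Benjamini-Hochberg over each table (recomputed to within 5.25e-07). WT and KO columns follow the order in the file names. P-values measure the spread Cuffdiff estimated between 2 libraries a group.

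Drug over control ratios used a pseudocount of 1. Windows were 10 Mb by the middle of each gene's locus. Gene spans and overlaps came from GENCODE 29 (57047 gene IDs matched). Python 3.11.15 with numpy 2.4.6, pandas 2.3.3 and matplotlib 3.10.9 were used, and the calculations were tested on simulated data. The members and lists were chosen with earlier results of these data known. The gene span and overlap comparisons were added after the values were seen. Levels in all 8 groups are given for members called 1 way in at least 3 tables or both ways, the 4 largest drug ratios per drug and genotype, and the extremes of each class. Pathway genes are named if called 1 way in at least 3 tables or both ways. Not every such gene is reported here, and some checkpoint genes outside this rule are named. Alternatives covered the q threshold, a 1.5-fold minimum, filters on low values, pseudocounts and scaling. RefSeq promoters were matched by symbol or synonym.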

Additional observations from a re-analysis of the deposited data

Results flagged for a closer look

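The KO over WT ratio of 4 members was called in opposite directions in different conditions. They are 4 of the 31 tested in every table, no larger a share than the 12.9% of all genes. The difference between conditions was not tested, and each value rests on 1 FPKM per group. RAD51B had a log2 ratio of 0.78 in doxorubicin and -0.78 in control. RAD51AP1 had 0.43 in cisplatin, -0.59 in doxorubicin, -0.34 in tunicamycin and -0.56 in control. XRCC4 had 0.32 in doxorubicin, 0.61 in tunicamycin and -0.58 in control. H2AFX had 0.14 in cisplatin, -0.33 in tunicamycin and 0.062 in control.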

How the results depend on the processing

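With calls also required to reach 1.5-fold, members called higher in KO cells numbered 5 in cisplatin, 4 in doxorubicin, 2 in tunicamycin and 4 in control, and members called lower 0 in cisplatin, 0 in tunicamycin and 2 in control. The share of all genes called at that size was not taken. With q at most 0.01, 3 members were higher in doxorubicin and 2 lower in tunicamycin. The other counts of calls stayed within 1.5 times under these thresholds, under adjustment over other sets of genes, and without the members of shifted windows or with shared exonic bases (the last settings were added after seeing the data). Minus the median of all genes, also added then, the members' median drug over control ratio was 0.0026 (KO) and -0.18 (WT) in cisplatin and -0.95 and -0.80 in doxorubicin. Past 1.5-fold higher on that scale were 4 (KO) and 3 (WT) of 36 members in doxorubicin, beside 34.4% and 32.0% of all genes. In tunicamycin 2 of 36 were in WT cells, beside 12.5% of all genes. The members' doxorubicin median was -2.02 and -1.83 with a pseudocount of 0.1, and -1.87 and -1.66 with 0.5. Scaled across tables over 5030 genes, WT medians were -1.38 in doxorubicin and -0.22 in tunicamycin, and WT members past 1.5-fold higher numbered 1 and 2. Drug over control ratios near 0 turned round. Scaled across tables, RBBP8 in cisplatin (KO) was -0.074 and XRCC5 in doxorubicin (WT) 0.087. Minus the median of all genes, RBBP8 was -0.12, XRCC5 0.64, and in doxorubicin ATM (KO) 0.58 and PRKDC (WT) 0.52. With a pseudocount of 1 the KO over WT ratio was 0.28 for LIG4 in doxorubicin and 1.02 for RAD52 in control. No called KO over WT ratio turned round under the scaling and pseudocount run.

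No paired analysis was possible because the tables hold 1 value per group, and leaving out a replicate was not run for the same reason. No interval for depth can be given without counts.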

Other observations

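The KO over WT ratio also varied with gene span over all tested genes under cisplatin and doxorubicin. Under cisplatin its median was 0.11 for genes up to 10 kb and -0.49 for genes over 200 kb, of which 43.9% were called lower in KO cells. Under doxorubicin the medians were 0.25 and -0.16, with 11.2% and 26.9% called lower. In control the same classes had medians of 0.058 and -0.026, and in tunicamycin 0.061 and -0.012. The long members XRCC4 (0.13), RAD51B (-0.11) and RBBP8 (0.28) all had ratios above the cisplatin median of their span class. Against control, the levels of XRCC4 and RAD51B under cisplatin were less far below in KO than in WT cells, whereas the median of all genes over 200 kb was further below in KO cells.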
